A study of Mus musculus with 6 samples.

Results

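The insulin-like growth factor (IGF) binding proteins described here are Igfbp2, Igfbp3, Igfbp4, Igfbp5, Igfbp6 and Igfbp7, 6 genes of the 12393 that the array names by a probe set with 1 gene symbol. All probe sets whose only symbol is one of these names were taken, which gave 14 of 22626 probe sets after the controls were left out. Igfbp4 has 6 of them, Igfbp7 has 3, Igfbp5 has 2, and Igfbp2, Igfbp3 and Igfbp6 have 1 each. The genes were chosen with the difference between ECS at 2 h and sham already known for at least Igfbp4, so that comparison is given for them as a description with no test.

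The arrays measured RNA of the paraventricular hypothalamus (PVN), the part of the hypothalamus that holds the oxytocin, vasopressin and corticotropin-releasing neurons, in C57Bl/6 mice. The 3 groups were mice 2 h after 1 shock through ear clips under isoflurane (ECS 2 h), mice 6 h after such a shock (ECS 6 h), and sham mice that were handled alike, given no shock and sampled at 2 h. Each group has 2 arrays, each of RNA pooled from 2 to 3 animals, and the replicate number was read as the run, since the experiment was done 2 times with different animals. The labels do not state that link outright. The PVN was cut out by laser from sections, and its RNA was amplified before labelling. No sham mice were taken at 6 h, so at that time the shock and the hours since handling cannot be told apart. The labels used here give neither sex nor age of the mice. The p-values below measure the spread between these pools.

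IGF binding proteins are secreted proteins that hold IGF-I and IGF-II outside cells, lengthen their life and set how much of them reaches the IGF-I receptor. Proteases such as pappalysin cut the binding proteins and free the ligand. In the brain these proteins are made by neurons, glia, vessel cells and the meninges, each in its own mixture.

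The data show that Igfbp4 signal was lower on both ECS 2 h arrays than on both sham arrays in all 6 of its probe sets, which are not independent. Of all 22626 probe sets 16% were lower in that way. On the log2(signal + 16) scale the difference was 9.26-fold in the brightest Igfbp4 probe set and 1.14-fold in the dim 1421991_a_at. At 6 h the brightest one lay between the ECS 2 h and the sham level. Igfbp5 gave a different order in its brightest probe set, with a level at 2 h close to sham and both arrays below sham at 6 h, one of them at the floor, which the other Igfbp5 probe set showed on 1 array of 2. Igfbp2 and Igfbp6 were below sham on all 4 ECS arrays, with Igfbp6 near the lowest signal of the array. Igfbp3 overlapped between the groups, and so did Igfbp7 in its brightest probe set. None of the differences tested passed the threshold after adjustment over all probe sets.

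The stretches around the start sites of the 3 genes with the largest group differences are shown, chosen after the values were seen, to show how the stretches that their transcription starts from differ in base composition. They come from RefSeq on build GRCm38.p6 and run from 250 bases before the start of the gene to 50 bases after it, in the direction of transcription. Capitals mark TATAAA, the TATA box core, on either strand. The Igfbp4 window is chr11:99040994-99041293 on the plus strand, the Igfbp5 window is chr1:72874816-72875115 on the minus strand, and the Igfbp6 window is chr15:102143936-102144235 on the plus strand.
Igfbp4: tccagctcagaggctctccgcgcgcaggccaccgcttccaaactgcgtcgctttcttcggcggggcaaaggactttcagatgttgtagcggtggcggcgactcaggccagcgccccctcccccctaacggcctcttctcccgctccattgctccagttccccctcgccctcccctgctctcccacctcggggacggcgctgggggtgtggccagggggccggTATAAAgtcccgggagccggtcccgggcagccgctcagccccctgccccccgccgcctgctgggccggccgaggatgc
Igfbp5: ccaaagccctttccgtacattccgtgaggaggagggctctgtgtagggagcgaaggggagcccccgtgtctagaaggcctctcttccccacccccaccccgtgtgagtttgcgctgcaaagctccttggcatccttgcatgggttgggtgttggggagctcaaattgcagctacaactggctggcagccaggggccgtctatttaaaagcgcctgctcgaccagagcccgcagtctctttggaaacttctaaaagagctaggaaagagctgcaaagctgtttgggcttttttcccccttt
Igfbp6: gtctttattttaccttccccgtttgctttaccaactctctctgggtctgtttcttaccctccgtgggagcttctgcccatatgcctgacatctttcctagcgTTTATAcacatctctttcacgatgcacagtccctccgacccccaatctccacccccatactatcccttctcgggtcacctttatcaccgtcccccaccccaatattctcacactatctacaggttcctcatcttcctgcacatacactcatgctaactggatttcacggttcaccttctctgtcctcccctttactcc
The Igfbp4 window is 71.3% G and C with 27 CpG dinucleotides and holds its TATAAA 28 bases before the start. The Igfbp5 window is 56.3% G and C with 10 CpG and holds none of the motifs searched. The Igfbp6 window is 49.7% G and C with 8 CpG, and its capitals, which read TATAAA on the minus strand, lie 148 bases before the start. The median over 32851 mouse promoter windows of that length was 52.7% G and C with 7 CpG.

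All 6 genes had such a window in RefSeq, 7 windows in all because Igfbp2 has 2 start sites. Motifs known from genes that answer neuronal activity were searched on both strands as plain letters, and no match in these windows overlapped another. The AP-1 motif TGANTCA lies in 7.81% of all windows and was found in the second window of Igfbp2, 39 bases before the start. The CRE motif TGACGTCA (1.79% of all windows), the EGR motif GCGNGGGCG (5.55%) and the NBRE motif AAAGGTCA (1.51%) were found in none of the 7. The E-box CACGTG (7.15%) was found in the first Igfbp2 window, and the GC box GGGCGG (35.7%) was found 3 times in that window and 4 times in the Igfbp7 window. TATAAA lies in 13.6% of all windows. On the chromosome, Igfbp2 and Igfbp5 are next to each other among the protein-coding genes of chromosome 1, and Igfbp3 lies next to Igfbp1 on chromosome 11.

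Some facts of the arrays touch all of these values. The deposited signal is a linear intensity whose median on an array ran from 25.2 to 40.8, and after quantile normalization log2(signal + 16) was taken, so that a signal of 0 stands at 4 and differences of dim probe sets are shrunk. All fold changes are on that scale. The ratio of 3' to 5' probe sets of Gapdh, which rises where RNA is short, was 14.1 on ECS 6 h replicate 1 against 6.43 to 10.5 on the others. The same ratio of Actb did not set that array apart, with 0.764 against 0.562 to 0.771 on the others. The mean rank correlation of ECS 6 h replicate 1 with the other arrays was 0.887 against 0.906 to 0.919. The main Igfbp5 differences and the count of lower probe sets at 6 h are therefore given without that array too. The PVN neuropeptide genes Oxt, Avp, Trh and Sst and the PVN factor Sim1 were bright on all 6 arrays, while Otp, another PVN factor, was below the array's median on all 6 and Crh has no matched probe set.

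The filter kept the 12662 probe sets that reached the median of their array on at least 2 of the 6 arrays. It kept 10 of the 14 probe sets here, namely 5 of Igfbp4, both of Igfbp5 and 1 each of Igfbp2, Igfbp3 and Igfbp7. Of those 10, 3 reached the median on the sham arrays alone (Igfbp2 1454159_a_at, Igfbp4 1437406_x_at and Igfbp4 1423756_s_at), so they had to be higher in sham, and counts below are over all 14. The plot of signal by array shows each of the 14.

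**Figure D1:**
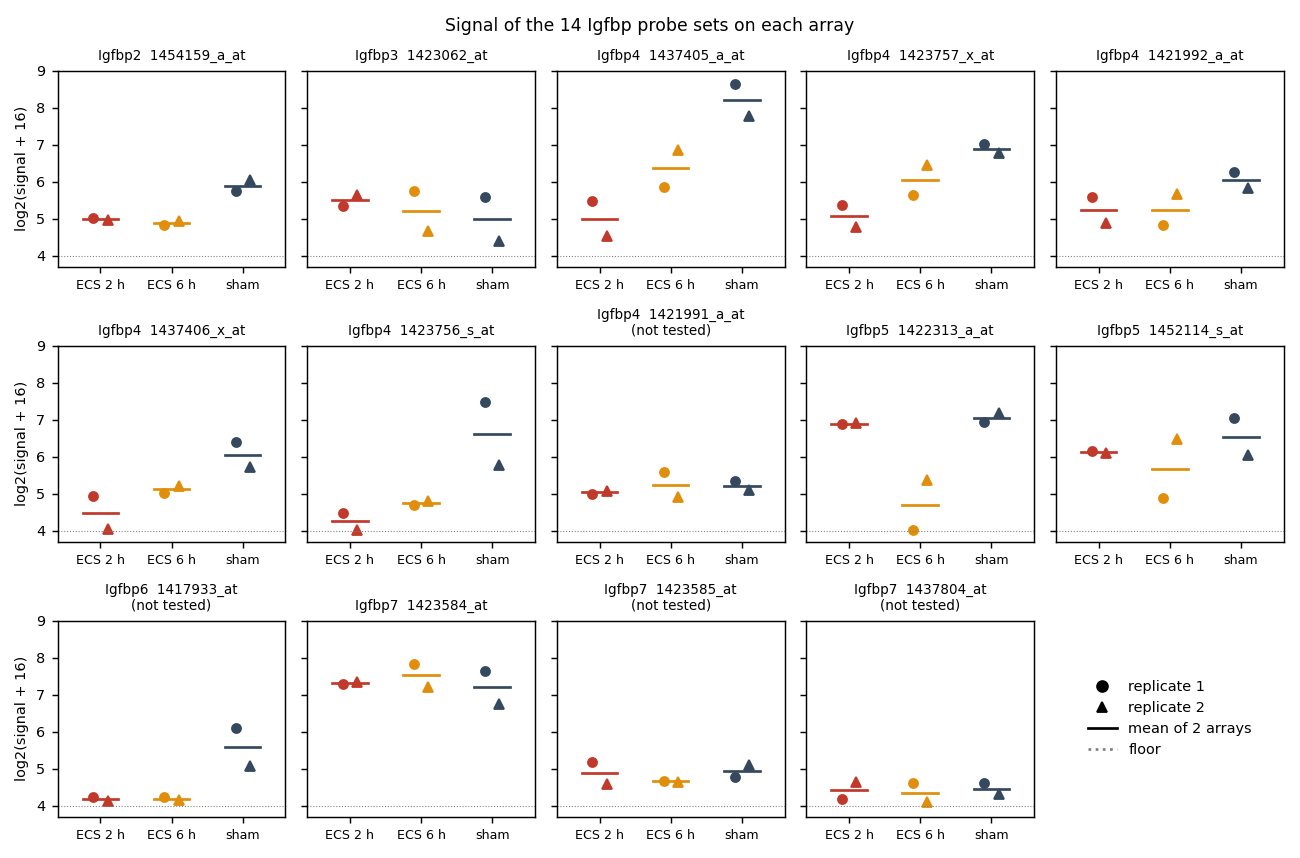
Each panel is 1 probe set, and the vertical axis is log2(signal + 16) after quantile normalization, with circles for replicate 1, triangles for replicate 2 and a line at the mean of the 2 arrays of ECS 2 h, ECS 6 h and sham. The brightest Igfbp4 probe set stands at 5.48 and 4.53 at ECS 2 h and at 8.64 and 7.78 in sham, while Igfbp5 1422313_a_at is low at ECS 6 h alone.

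Igfbp4 encodes a binding protein that is known above all for holding IGFs back from their receptor until pappalysin cuts it. Its brightest probe set, 1437405_a_at, had a deposited signal of 23.0 and 6.9 on the ECS 2 h arrays, 38.6 and 112.1 on the ECS 6 h arrays, and 299.4 and 252.5 on the sham arrays. All 4 ECS arrays lay below both sham arrays, and both ECS 2 h arrays lay below both ECS 6 h arrays. On the log2 scale the means were 5.00 ± 0.67 at ECS 2 h, 6.37 ± 0.71 at ECS 6 h and 8.21 ± 0.61 in sham (SD, n = 2 each). The order of the levels was thus sham, ECS 6 h, ECS 2 h, with no overlap between neighbours.

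The difference between ECS 2 h and sham in that probe set was -3.21 ± 0.50 (SE), or 9.26-fold, and it was -3.17 within replicate 1 and -3.25 within replicate 2. The difference between ECS 6 h and sham was -1.85 ± 0.50 (3.59-fold), with -2.78 within replicate 1 and -0.91 within replicate 2. The sizes at 2 h lie close together in replicates 1 and 2, while those at 6 h differ by more than the SE. Between ECS 6 h and ECS 2 h the difference was 1.37 ± 0.50 (2.58-fold), with 0.39 within replicate 1 and 2.34 within replicate 2. The later group was higher within both replicate numbers, mostly within replicate 2. By limma the unadjusted p was 0.00382 for ECS 6 h against sham and 0.0203 for ECS 6 h against ECS 2 h, and the Benjamini-Hochberg adjusted p was 1.00 and 0.999, so neither passed. Both comparisons share arrays with the known one of ECS 2 h and sham, so these p-values are not free of the choice of genes.

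The 6 Igfbp4 probe sets are not independent, since they come in 3 pairs that the array annotation ties to the same transcript record. The partner of the brightest one is 1437406_x_at, a probe set whose suffix marks probes that may also bind other transcripts. It had 12.1 and 0.4 at ECS 2 h, 14.5 and 24.2 at ECS 6 h, and 54.1 and 47.6 in sham. It had the same order of groups without overlap, with differences of -1.56 ± 0.52 at 2 h and -0.93 ± 0.52 at 6 h against sham.

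In the second pair, 1423757_x_at had 20.5 and 11.4 at ECS 2 h, 30.4 and 80.1 at ECS 6 h, and 89.3 and 116.2 in sham. It carries the same suffix as 1437406_x_at. Its differences from sham were -1.81 ± 0.44 at 2 h and -0.84 ± 0.44 at 6 h, and that of ECS 6 h from ECS 2 h was 0.97 ± 0.44. The partner 1423756_s_at had 5.3 and 0.3 at ECS 2 h, 8.6 and 13.0 at ECS 6 h, and 127.7 and 49.9 in sham. Its ECS arrays were all near the floor while its sham arrays lay far apart (SD 1.20 on the log2 scale), and its differences from sham were -2.36 ± 0.60 at 2 h and -1.88 ± 0.60 at 6 h, with no p given because it passed the filter through the sham arrays alone. Both probe sets again placed ECS 2 h lowest, ECS 6 h next and sham highest without overlap.

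The third pair showed less. The probe set 1421992_a_at had 25.9 and 13.8 at ECS 2 h, 11.2 and 39.3 at ECS 6 h, and 49.3 and 52.3 in sham, with differences from sham of -0.80 ± 0.49 at both times. The ECS arrays were all below both sham arrays, but the ECS groups overlapped and their means differed by 0.0020. Its partner 1421991_a_at, which did not pass the filter, had 12.8 and 17.9 at ECS 2 h, 28.7 and 16 at ECS 6 h, and 20.4 and 23.6 in sham. There the mean difference of ECS 2 h from sham was -0.18, and the ECS 6 h arrays lay on either side of sham with a mean difference of 0.03.

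Across the 6 arrays the 5 tested Igfbp4 probe sets varied together, with Pearson r between 0.825 and 0.985 over their 10 pairs. The dim 1421991_a_at did not follow them, with r between -0.24 and 0.31. These points share their arrays, and some share a target, so the values only describe the likeness. Among the 5, 1437406_x_at and 1423756_s_at passed the filter through the sham arrays alone, so they had to be higher in sham. Their likeness to the others and the average over the 5 are partly set by that. The size of the difference nevertheless ran from -0.80 to -3.21 at 2 h, and averaging the 5 probe sets gave -1.95 at 2 h and -1.26 at 6 h. The plot of log2 differences shows this range.

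**Figure D2:**
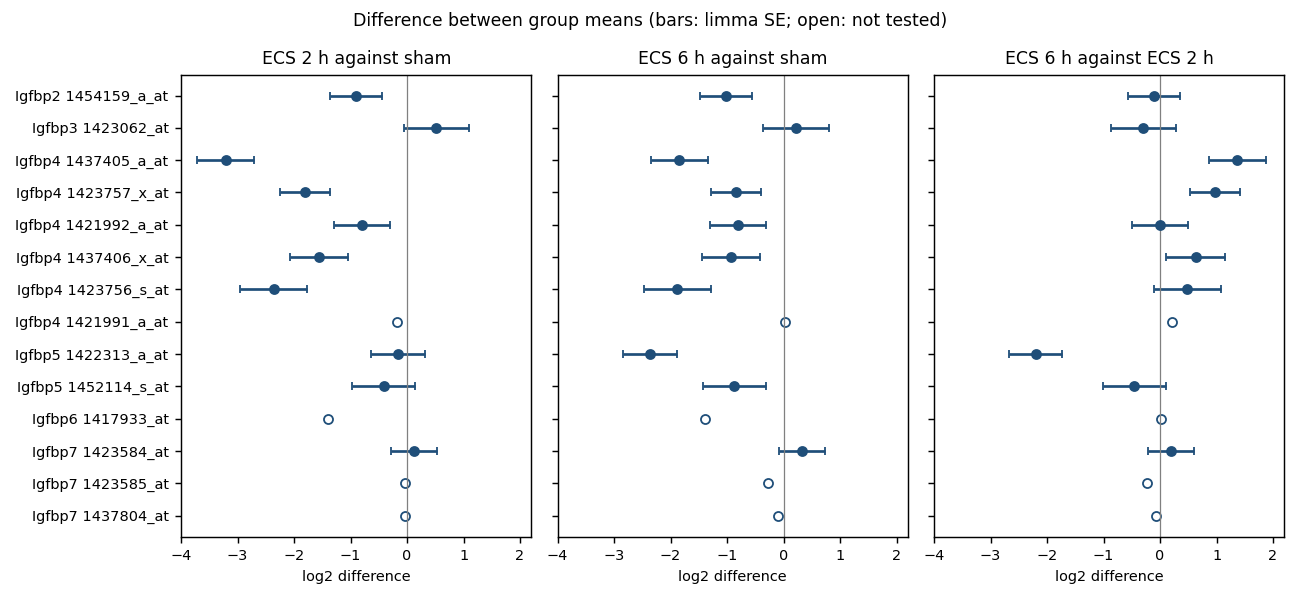
Each row is 1 probe set, and the horizontal axis is the log2 difference between group means for ECS 2 h against sham, ECS 6 h against sham, and ECS 6 h against ECS 2 h, with limma's SE as bars and open points for probe sets that did not pass the filter. The Igfbp4 probe sets lie between -0.18 and -3.21 at 2 h, and Igfbp5 1422313_a_at stands at -2.36 at 6 h against -0.16 at 2 h.

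Igfbp5 encodes a binding protein that attaches to the extracellular matrix and is known both to restrain and to strengthen IGF action. Its probe set 1422313_a_at had 81.4 and 110.9 at ECS 2 h, 0.2 and 28.8 at ECS 6 h, and 84.5 and 158.6 in sham. The ECS 6 h arrays were below all 4 others, and replicate 1 of ECS 6 h sat at the floor. The ECS 2 h arrays were both just below the sham arrays after normalization, with a mean of 6.89 ± 0.03 against 7.05 ± 0.17 in sham (SD, n = 2 each), and ECS 6 h averaged 4.69 ± 0.95.

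The difference of that probe set from sham was -0.16 ± 0.47 at 2 h and -2.36 ± 0.47 at 6 h, the last being -2.92 within replicate 1 and -1.81 within replicate 2. ECS 6 h differed from ECS 2 h by -2.20 ± 0.47 (4.61-fold), with -2.85 and -1.55 within the replicates. The unadjusted p by limma was 0.000460 for ECS 6 h against sham and 0.000780 for ECS 6 h against ECS 2 h, the smallest among these genes in both comparisons, and the adjusted p was 1.00 and 0.999. In a fit blocked by replicate number the adjusted p for ECS 6 h against sham was 0.409, against 0.675 for the brightest Igfbp4 probe set. Without ECS 6 h replicate 1, the array that stood apart, the differences were -1.67 from sham and -1.51 from ECS 2 h.

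The other Igfbp5 probe set, 1452114_s_at, had 44.5 and 55.7 at ECS 2 h, 11.9 and 81.2 at ECS 6 h, and 92.7 and 63.6 in sham. Its groups overlapped in all 3 comparisons, and ECS 6 h minus sham was -2.18 within replicate 1 but 0.44 within replicate 2. The mean differences were -0.41 ± 0.56 at 2 h and -0.87 ± 0.56 at 6 h against sham (adjusted p = 1.00 at 6 h by limma). The probe sets of this gene thus disagreed on ECS 6 h replicate 2, with r = 0.676 between them over the 6 arrays, and their average gave -1.62 at 6 h. Without ECS 6 h replicate 1 the difference of 1452114_s_at between ECS 6 h and ECS 2 h was 0.33, of the opposite sign to its -0.46 with all arrays.

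Igfbp2, a binding protein abundant in the brain and cerebrospinal fluid, was measured by 1454159_a_at. It had 13.3 and 15.2 at ECS 2 h, 10.9 and 16.6 at ECS 6 h, and 30.3 and 64.5 in sham. All ECS arrays were below both sham arrays, and the ECS groups were close to each other, with means of 4.99 ± 0.04 at ECS 2 h, 4.88 ± 0.08 at ECS 6 h and 5.90 ± 0.22 in sham (SD, n = 2 each). The differences from sham were -0.91 ± 0.46 at 2 h and -1.02 ± 0.46 at 6 h. As the probe set passed the filter through the sham arrays alone, the direction was fixed by the filter and no p is given against sham. ECS 6 h differed from ECS 2 h by -0.11 ± 0.46.

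Igfbp6, a binding protein that prefers IGF-II, was measured by 1417933_at, which did not pass the filter. It had 2.2 and 1.3 at ECS 2 h, 2.3 and 1.9 at ECS 6 h, and 41.9 and 23.0 in sham. The 4 ECS arrays were near the floor and the sham arrays were above it, the first of them above that array's median, so the differences of -1.40 at 2 h and -1.39 at 6 h are set by the sham arrays and by the offset. Because the probe set was low on the ECS arrays and reached the median on 1 array only, it had no test.

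Igfbp3, the main IGF carrier of serum, was measured by 1423062_at. It had 20.2 and 35.6 at ECS 2 h, 34.7 and 10.2 at ECS 6 h, and 25.8 and 6.5 in sham. The groups overlapped, with an SD of 0.21 at ECS 2 h, 0.78 at ECS 6 h and 0.83 in sham (n = 2 each). The differences from sham were 0.52 ± 0.58 at 2 h and 0.22 ± 0.58 at 6 h (adjusted p = 1.00 at 6 h by limma).

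Igfbp7, a relative with weak affinity for IGFs that is known as a protein of vessel walls, was bright on every array in its probe set 1423584_at. That probe set had 112.6 and 154.6 at ECS 2 h, 217.3 and 146.2 at ECS 6 h, and 144.9 and 114.4 in sham. The groups overlapped, with differences from sham of 0.13 ± 0.41 at 2 h and 0.33 ± 0.41 at 6 h (adjusted p = 1.00 at 6 h by limma). Its other probe sets, 1423585_at and 1437804_at, were below the array's median on all 6 arrays, between 8.0 and 23.4 and between 1.2 and 8.8. Over the 6 arrays Igfbp7 1423584_at followed Igfbp3 (r = 0.875), and Igfbp6 followed Igfbp4 1423756_s_at (r = 0.981), as descriptions over arrays they share.

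Over the 14 probe sets, 9 were lower on both ECS 2 h arrays than on both sham arrays and 0 were higher, while 16% of all 22626 probe sets were lower in that way and 16.4% higher. Those 9 belong to 4 genes, 6 of them to Igfbp4, and as the 2 h values were known when the genes were chosen nothing is read from the count. At ECS 6 h against sham 9 probe sets of 5 genes were lower without overlap and 0 were higher, against 14.9% and 15.9% of all probe sets. Igfbp7 counts there only through the dim 1423585_at (-0.28), while its brightest probe set overlapped with a mean difference of 0.33. The share lower lies above the background, but it rests on probe sets that share genes and targets and on the same sham arrays as at 2 h. The median difference was -0.61 at 2 h and -0.86 at 6 h, against 0.01 over all probe sets at both times. In a setting chosen after seeing the data, without ECS 6 h replicate 1, the counts were 9 at 2 h and 11 at 6 h, where 31.2% of all probe sets were lower in that way.

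With at least 2-fold in addition, 5 of the 14 were lower at 2 h (1.24% of all probe sets) and 5 at 6 h (1.27%). At 2 h they were 4 probe sets of Igfbp4 and that of Igfbp6, and at 6 h they were 2 of Igfbp4 and 1 each of Igfbp2, Igfbp5 and Igfbp6. Between ECS 6 h and ECS 2 h, 4 probe sets were higher without overlap, all of Igfbp4 (15.3% of all probe sets), and 2 were lower, Igfbp5 1422313_a_at and Igfbp2 (15.2%). The 4 higher probe sets are of 1 gene and include both of the brightest pair, so they stand for 1 gene.

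By limma 0 of the 10 tested probe sets passed an adjusted p of 0.05 for ECS 6 h against sham, and 0 for ECS 6 h against ECS 2 h. The background is equally 0.0% of 12662 in each comparison, with 475 probe sets at an unadjusted p under 0.05 in the first and 438 in the second. Of the 10, 3 passed the filter through the sham arrays alone, so the direction of their tests against sham was fixed by the filter. Both comparisons also share arrays with the one known when the genes were chosen. A p that misses the threshold does not show that levels were alike, and the number of arrays limits what can be told.

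The plot of the brightest Igfbp4 and Igfbp5 probe sets under each setting shows how far their differences depend on processing. For Igfbp4 1437405_a_at the difference of ECS 2 h from sham ran from -4.19 with an offset of 1 to -2.10 with an offset of 64, was -1.95 as the mean over the 5 tested probe sets, and ran from -3.72 to -2.73 when 1 array was left out. For Igfbp5 1422313_a_at the difference of ECS 6 h from sham ran from -4.40 with an offset of 1 to -1.26 with an offset of 64, and 1 of its ECS 6 h arrays lay at the floor. Both differences kept their sign in each of these settings.

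**Figure D3:**
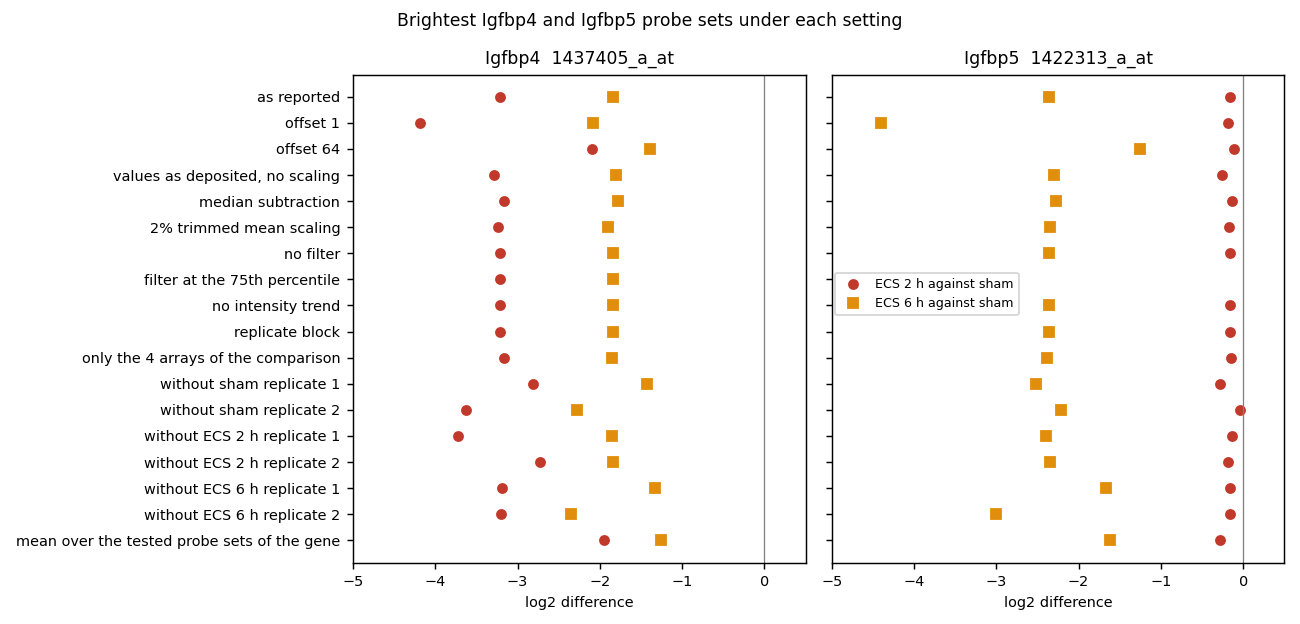
Each row is a processing setting, and the horizontal axis is the log2 difference of Igfbp4 1437405_a_at (left) and Igfbp5 1422313_a_at (right), with circles for ECS 2 h against sham and squares for ECS 6 h against sham. The Igfbp5 row for the stricter filter is blank because the probe set did not pass it, and the Igfbp5 value at 6 h ranges from -4.40 with an offset of 1 to -1.26 with an offset of 64, while the Igfbp4 value at 2 h comes nearest to 0 at -1.95 with the mean over probe sets.

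Markers of other cells moved with the Igfbp4 values. Of 7 listed markers of cortex and hippocampus neurons 4 have probe sets, and their summed signal was 49.2 and 123 on the ECS 2 h arrays, 141 and 548 on the ECS 6 h arrays, and 675 and 789 on the sham arrays. In that sum the order of the groups was that of Igfbp4 1437405_a_at, with the ECS 2 h arrays lowest. ECS 6 h replicate 2 was above ECS 6 h replicate 1 in both. ECS 2 h replicate 1 was above replicate 2 for Igfbp4 and below it for the summed markers. Camk2a, a kinase subunit abundant at forebrain synapses, differed from sham by -2.74 at 2 h and -1.0 at 6 h, and Tbr1, a cortical transcription factor, by -2.39 and -1.45. Tbr1 had a deposited signal of 4.6 and 3.2 at ECS 2 h, 5.8 and 58.7 at ECS 6 h, and 88.7 and 92.1 in sham. Camk2a was the brightest of the 4 on every array, so the sum mostly follows that gene. Nrgn differed from sham by -2.08 at 2 h and -1.91 at 6 h, and Neurod6, below the filter, by -1.51 and -0.86. Both overlapped between the ECS groups, with ECS 6 h replicate 1 the lowest array, so they did not follow the Igfbp4 order there. The part of these cells, or of tissue beside the PVN, in the Igfbp4 values was not tested. In such pools fewer cells of a type and less RNA per cell cannot be told apart.

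**Figure D4:**
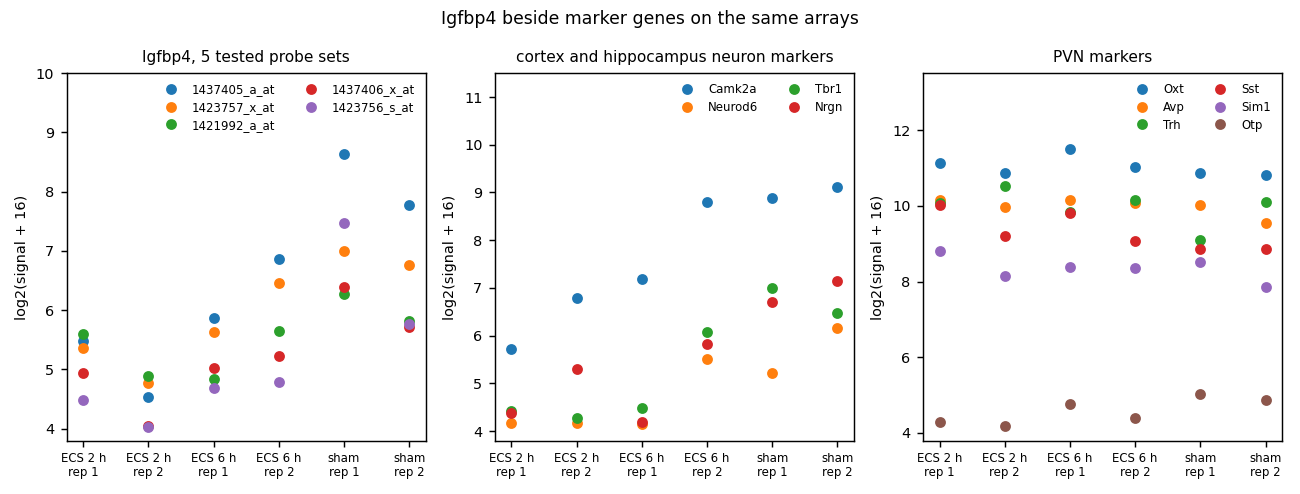
The vertical axes are log2(signal + 16) on the 6 arrays, for the 5 tested Igfbp4 probe sets (left), 4 markers of cortex and hippocampus neurons (middle) and 6 PVN markers (right). Igfbp4 and the cortical markers are both low on the ECS 2 h arrays and high on the sham arrays, while the PVN neuropeptides are bright on all 6.

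Of the general neuron markers 10 of 10 had lower means than sham at both times, with a median difference of -0.42 at 2 h and -0.25 at 6 h. The single markers furthest below sham included Syt1, a synaptic vesicle protein, with -1.46 at 2 h, and Rbfox3, a nuclear neuron protein, with -0.96 at 2 h and -0.99 at 6 h. The 5 tested PVN markers had higher means than sham at both times, with medians of 0.29 and 0.40. Otp, which did not pass the filter, went the other way without overlap, with -0.71 at 2 h and -0.36 at 6 h. Markers of other cells known to make IGF binding proteins went both ways. Tested endothelial markers (6 of 10 listed) had a median of 0.31 at 2 h and 0.38 at 6 h, mural cell markers (6 of 10) 0.26 and 0.21, astrocyte markers (8 of 8) -0.17 and -0.10, and meningeal fibroblast markers (2 of 8) -0.34 and 0.25. Of the 6 tested mural markers 4 had higher and 2 had lower means than sham at 2 h, and 3 were higher and 3 lower at 6 h. Acta2, the actin of smooth muscle, was lower than sham without overlap at both times, with differences of -0.90 at 2 h and -1.49 at 6 h. Its probe set passed the filter through the sham arrays alone, so that direction was fixed by the filter. Pdgfrb was higher than sham without overlap at both times, with 0.59 at 2 h and 0.97 at 6 h. Its probe set reached the array's median on the ECS arrays alone. The part of mural cells in the Igfbp values was not tested. The summed signal of the 8 meningeal markers was 92.3 and 103 at ECS 2 h, 165 and 96.9 at ECS 6 h, and 147 and 116 in sham, with Dcn, Lum, Ogn and Aldh1a2 below the median on all arrays. None of the 6 choroid plexus markers on the array passed the filter, and Ttr, its defining gene, was below the median on all arrays, as were the ependymal markers Foxj1 and Rax. Tested oligodendrocyte markers (4 of 8) had medians of -0.28 at 2 h and -0.42 at 6 h, microglia markers (7 of 9) 0.09 and 0.09, thalamus neuron markers (2 of 6) 0.39 and 0.83, and blood cell markers (2 of 5) -0.03 and 0.13.

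The rest of the IGF system was read from a list of 38 genes, of which 34 have a probe set and 18 were tested. The number called by limma was 0 of 18 in each comparison, as in the background of 0.0%. Means were higher than sham for 8 and lower for 10 genes at 2 h, and higher for 9 and lower for 9 at 6 h. Without overlap, 4 of the 18 were higher and 5 lower than sham at 2 h, against 16.4% and 16% of all probe sets. At 6 h 2 were higher and 3 lower without overlap, against 15.9% and 14.9%.

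Among the ligands Igf2 alone was tested. It had 27.1 and 57.7 at ECS 2 h, 59.8 and 22.5 at ECS 6 h, and 84.7 and 24.9 in sham, with differences from sham of -0.14 ± 0.62 at 2 h and -0.30 ± 0.62 at 6 h. Its groups overlapped at both times. Igf1, with 3.6 to 18.6 over the 6 arrays, and Ins2 were below the array's median on all arrays, and Ins1 has no matched probe set.

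The 3 tested receptors had higher means than sham at both times. Igf2r, the receptor that takes up IGF-II, had 73.0 and 122.3 at ECS 2 h, 34.5 and 106.4 at ECS 6 h, and 39.5 and 45.0 in sham, with differences from sham of 1.04 ± 0.44 at 2 h and 0.43 ± 0.44 at 6 h. Insr, the insulin receptor, had 54.9 and 177.3 at ECS 2 h, 81.4 and 140.5 at ECS 6 h, and 41.9 and 73.5 in sham, with differences of 0.81 ± 0.44 and 0.76 ± 0.44. Igf1r, which carries the signal of IGF-I, had 73.8 and 157.7 at ECS 2 h, 78.5 and 96.0 at ECS 6 h, and 73.1 and 71.8 in sham, with differences of 0.60 ± 0.40 and 0.18 ± 0.40. After normalization the ECS arrays lay above both sham arrays for Insr at both times and for Igf2r at 2 h, and the adjusted p at 6 h was 1.00 for each by limma. Insrr, the receptor relative, was below the filter, with 0.65 at 2 h and -0.0045 at 6 h.

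Of the proteins that act on the binding proteins, Htra1, a secreted protease known to cut Igfbp5, was tested. It had 512.6 and 999.6 at ECS 2 h, 967.8 and 946.2 at ECS 6 h, and 486.5 and 659.6 in sham, with differences of 0.40 ± 0.26 at 2 h and 0.59 ± 0.26 at 6 h, without overlap after normalization at both times. Pappa, the pappalysin that cuts Igfbp4, its inhibitors Stc1 and Stc2, and Igfals, which joins Igfbp3 and IGF in serum, were below the median on all 6 arrays. Pappa was therefore not compared between groups.

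Inside the cell, the receptor adaptors Irs2, Shc1, Grb10 and Grb14 overlapped between groups at both times, and their differences from sham lay between -0.53 and 0.02. In the relay through PI3 kinase 7 genes were tested. Pik3r1, its regulatory subunit, differed from sham by -0.48 ± 0.41 at 2 h and -0.62 ± 0.41 at 6 h, and Foxo3, a transcription factor that the relay keeps out of the nucleus, by -0.42 ± 0.34 and -0.72 ± 0.34. After normalization both were lower without overlap at both times. Pdpk1, the kinase that activates Akt, differed by -0.56 ± 0.34 at 2 h and 0.05 ± 0.34 at 6 h, and Pik3ca, the catalytic subunit, by -0.30 ± 0.37 and 0.05 ± 0.37. The differences of Akt1, Akt2 and Foxo1 lay between -0.49 and 0.33. At 2 h Pdpk1 and Pik3ca were also lower, and Foxo1 higher, without overlap.

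Ccn3, a matrix protein that carries an IGF binding protein domain at its start, had the largest difference of the list. Its signal was 13.9 and 18.5 at ECS 2 h, 5.1 and 24.5 at ECS 6 h, and 63.1 and 69.9 in sham. The ECS arrays were all below both sham arrays, with differences of -1.27 ± 0.48 at 2 h and -1.52 ± 0.48 at 6 h. Ccn3 passed the filter through the sham arrays alone, so its direction was fixed by the filter. Kazald1, another relative, overlapped between groups, with -0.12 ± 0.43 and -0.27 ± 0.43. Igfbp1, the family member left out of the genes described here, had 0.4 to 5.1 on the 6 arrays and was below the median on all. The plot of the IGF system shows all 18 tested genes.

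**Figure D5:**
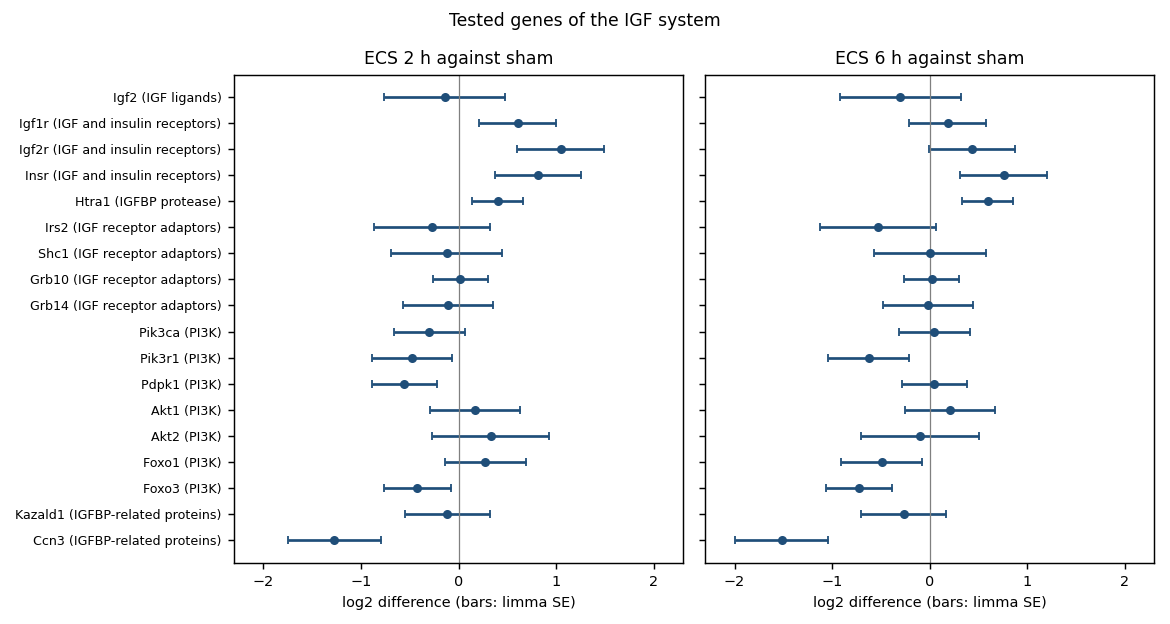
Each row is a tested gene of the IGF system with its role, and the horizontal axis is the log2 difference from sham at ECS 2 h (left) and ECS 6 h (right), with limma's SE as bars. Ccn3, which passed the filter through the sham arrays alone, stands lowest at -1.27 and -1.52, and Igf2r highest at 2 h with 1.04.

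The genes most like the brightest Igfbp4 and Igfbp5 probe sets were found by Pearson r over the 6 arrays among tested probe sets of other genes with a range of at least 1 log2 unit. For Igfbp4 1437405_a_at, out of 5941, they were Kcnma1 (r = 0.991), Kalrn (0.990), Fam3c (0.976), Prickle1 (0.975) and Septin7 (0.974). Kalrn, an exchange factor of dendritic spines, came close in size as well, with differences from sham of -3.07 at 2 h and -1.58 at 6 h, while Kcnma1, a potassium channel, differed by -0.89 and -0.48. For Igfbp5 1422313_a_at, out of 5944, they were Colgalt1 (0.992), Dzip1 (0.983), Nek7 (0.981), Dst (0.974) and Klf6 (0.973). Each of these was lowest on ECS 6 h replicate 1, the array that stood apart, and r without that array is not given. Klf6, a transcription factor, differed from sham by 0.03 at 2 h and -1.09 at 6 h, and Colgalt1, a collagen galactosyltransferase, by -0.07 and -1.04. The values describe 6 arrays of 3 groups, and many probe sets were compared.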

How the data were processed

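RNA of laser-cut PVN was measured on 6 Affymetrix mouse arrays in 3 groups of 2. The deposited values are linear MAS5 intensity values from the authors, as the submitters' processing notes name that tool. The MAS5 version and target are, like detection calls, not given in the sources used here. Array medians differed, so the values were quantile normalized, an offset of 16 was added and log2 was taken. The 64 control probe sets were left out. The 12662 probe sets at or above their array's median on at least 2 arrays were fitted with limma 3.58.1 (R 4.3.3), using group means, an intensity trend, and two-sided Benjamini-Hochberg adjusted p-values at 0.05. The fit was tested on simulated data. Of 22626 probe sets 20380 have 1 symbol in the array annotation, 691 several and 1555 none, and 20351 matched RefSeq by Entrez identifier.

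Named genes are all probe sets of the 6 genes, up to 4 genes of each pathway list and comparison by smallest p with ligands and receptors always, and the 5 genes most alike over the arrays. Markers are named where an Igfbp value moved with them, and Pdgfrb is named as a mural marker that moved the other way from Acta2. The members, lists and rules were chosen with earlier results of these data known. Deviations of same-numbered arrays from their group means correlated by 0.228, 0.185 and 0.151 across probe sets, so the numbers were taken to pair the arrays by run, as the 2 runs with different animals in the design text allow, and a fit with the replicate block was an alternative. The others were the offset, the scaling, the filter, the trend, fewer arrays and the mean over a gene's probe sets. The number of arrays limits the precision.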

Additional observations from a re-analysis of the deposited data

How the results depend on the processing

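No probe set of the 6 genes was called under any alternative, in 293 values at ECS 6 h against sham or ECS 6 h against ECS 2 h, the smallest adjusted p by limma being 0.0653 for Igfbp5 1422313_a_at at ECS 6 h against sham without ECS 6 h replicate 2. Of 148 alternative values at ECS 2 h against sham 130 moved by less than the SD between replicates and 18 by more, and leaving out 1 array turned the sign for Igfbp3 (range -0.07 to 1.13), Igfbp5 1452114_s_at (-0.93 to 0.10) and Igfbp7 1423584_at (-0.32 to 0.58). Over all probe sets limma called 0 at ECS 2 h against sham, but 1 with the values as deposited, 1 with median subtraction, 4 with the replicate block, 7 with only the 4 arrays of the comparison, and 0 to 10 when 1 array was left out, 10 without ECS 6 h replicate 1 and 10 without ECS 6 h replicate 2; the cause was not tested. Leaving out 1 array gave 0 to 6 calls at ECS 6 h against sham and 0 to 3 at ECS 6 h against ECS 2 h, in both cases the most without ECS 6 h replicate 2. The replicate block changed no call of these genes, and it raised the probe sets at an unadjusted p under 0.05 to 826, 793 and 720, against 507, 475 and 438 without it. Leaving out 1 array turned the sign of the difference from sham at 6 h for Igfbp3 (range -0.36 to 0.83) and Igfbp7 1423584_at (-0.12 to 0.78). It turned the sign between ECS 6 h and ECS 2 h for Igfbp3 (-0.86 to 0.25), Igfbp4 1421992_a_at (-0.40 to 0.41), Igfbp5 1452114_s_at (-1.24 to 0.33) and Igfbp7 1423584_at (-0.12 to 0.52). An offset of 1 turned Igfbp4 1421992_a_at to -0.015 there. Averaging the probe sets of a gene gave -1.95 for Igfbp4 at 2 h. A further 45 values were not given because the probe set did not pass the changed filter. The 293 values include those of the 3 probe sets that passed the main filter through the sham arrays alone. The lone array left in a group was taken to vary like the other groups. Dim signals close to the offset limit all sizes.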
